A study of Mus musculus with 9 samples.

Results

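Among the 66788 windows of 1 kb (tiles) that could be measured in Abl.1 cells, 1423 were CpG-dense, autosomal and about half-methylated without drug. These tiles were chosen by a rule that used the untreated level. A tile had to lie on chromosomes 1 to 19, hold at least 20 CpG positions listed in any library and carry at least 10 reads in each of the 9 libraries. Its pooled level in the solvent controls, methylated over all reads, had to be 40% to 60%. The 1423 tiles made up 6.81% of the 20881 CpG-dense autosomal tiles and 2.13% of all tiles tested. Their level in the controls is therefore a description and supports nothing.

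Abl.1 cells are immortalised B cells of 1 clone, and all libraries come from it. Their donor was an F1 female of the cross 129S1/SvImJ x CAST/EiJ. Cells were grown with 1% DMSO, the solvent (2 libraries), or with 0.2 µM (2 libraries), 2 µM (3 libraries) or 10 µM (2 libraries) of 5-aza-dC. Live cells were collected on day 2 in every group, and DNA was read by reduced representation bisulfite sequencing (RRBS), which samples CpG-rich restriction fragments. The labels call the replicates library preparations and do not say that they came from separate cultures, so p-values here measure the spread between these libraries, which may be technical. The series is about DNA methylation and the expression of single alleles. The values used here do not separate the alleles, so methylation of 1 allele in all cells and of both alleles in part of the cells cannot be told apart. RRBS holds no expression, so the cell type was not checked against markers here.

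CpG-dense stretches, most of them CpG islands at gene starts, are usually free of methylation in normal cells. At imprinted genes one parental copy of such a stretch is methylated and the other is not, and on the inactive X chromosome many islands gain methylation on that copy. Intermediate levels also arise in cultured and transformed cells, where islands of developmental regulators held by Polycomb complexes take up methylation. 5-aza-dC replaces deoxycytidine in newly copied DNA and traps the maintenance methyltransferase DNMT1, so that methylation is diluted as cells divide.

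The sequences before 6 gene starts show what these tiles look like. Each is the 250 bases before the gene start (RefSeq, GRCm38.p6), 5′ to 3′ on the gene's strand, with every CpG in capitals. In the first pair, chosen after their values were seen, every CpG with at least 10 pooled control reads was at 25% to 75%: Nkx3-2 (chr5:41764221-41764470, minus strand, 16 of 16 CpGs read) and Rgs17 (chr10:5922401-5922650, minus strand, 15 of 15).
Nkx3-2: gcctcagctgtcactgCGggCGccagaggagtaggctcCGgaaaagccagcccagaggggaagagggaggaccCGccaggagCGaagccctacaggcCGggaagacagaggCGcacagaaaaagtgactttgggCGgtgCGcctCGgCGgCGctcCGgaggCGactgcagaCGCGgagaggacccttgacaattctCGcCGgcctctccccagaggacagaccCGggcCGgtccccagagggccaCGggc
Rgs17: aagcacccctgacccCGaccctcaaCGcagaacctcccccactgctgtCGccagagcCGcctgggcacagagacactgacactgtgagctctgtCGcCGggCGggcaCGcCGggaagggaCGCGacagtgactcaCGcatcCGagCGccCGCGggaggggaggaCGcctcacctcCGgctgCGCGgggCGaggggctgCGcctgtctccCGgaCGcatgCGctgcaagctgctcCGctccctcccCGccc
In the second pair most CpGs were intermediate and a few were not: Neo1 (chr9:59036442-59036691, minus strand, 19 of 23 intermediate and 3 under 25%) and Epha8 (chr4:136956817-136957066, minus strand, 12 of 16 intermediate and 4 under 25%). The Epha8 window runs past the end of its tile, and its counts were taken over the whole window.
Neo1: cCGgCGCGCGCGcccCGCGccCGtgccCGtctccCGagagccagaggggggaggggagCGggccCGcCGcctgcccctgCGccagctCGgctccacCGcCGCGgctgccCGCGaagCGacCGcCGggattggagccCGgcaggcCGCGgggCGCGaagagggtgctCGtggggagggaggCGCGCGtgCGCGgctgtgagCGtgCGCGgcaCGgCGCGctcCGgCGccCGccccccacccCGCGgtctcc
Epha8: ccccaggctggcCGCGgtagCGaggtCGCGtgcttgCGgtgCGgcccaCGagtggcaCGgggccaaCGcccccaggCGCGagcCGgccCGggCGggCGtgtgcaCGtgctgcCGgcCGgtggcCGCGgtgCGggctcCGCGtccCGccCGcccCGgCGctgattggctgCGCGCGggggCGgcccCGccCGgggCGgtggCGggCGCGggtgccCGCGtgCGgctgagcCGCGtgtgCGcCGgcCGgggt
The third pair lies in a half-methylated tile of an imprinted gene or across its edge and was mostly unmethylated in the controls although the tile as a whole was half-methylated: Commd1 (chr11:22972867-22973116, minus strand, 12 of 13 CpGs under 25%) and Gnas (chr2:174284070-174284319, plus strand, 7 of 7 under 25%).
Commd1: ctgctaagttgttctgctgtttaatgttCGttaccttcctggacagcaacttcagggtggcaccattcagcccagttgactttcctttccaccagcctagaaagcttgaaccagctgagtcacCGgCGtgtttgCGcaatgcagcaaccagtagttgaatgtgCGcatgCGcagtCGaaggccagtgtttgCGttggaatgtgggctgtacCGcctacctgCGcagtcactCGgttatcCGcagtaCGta
Gnas: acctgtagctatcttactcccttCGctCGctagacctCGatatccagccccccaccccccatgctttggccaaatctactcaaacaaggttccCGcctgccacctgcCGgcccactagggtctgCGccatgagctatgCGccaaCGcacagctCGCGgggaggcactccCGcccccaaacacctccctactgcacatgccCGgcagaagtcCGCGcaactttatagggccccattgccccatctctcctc

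The Nkx3-2 window, before the start of a homeobox gene of skeletal and gut development, stood at 54.4% and 60.4% in the DMSO libraries on 182 and 154 reads, a read being counted once for each CpG it covers. Under 0.2 µM it was 33.0% and 41.6%, under 2 µM 28.8%, 23.6% and 34.6%, and under 10 µM 33.5% and 46.6%. All 7 treated libraries lay under both controls. The Rgs17 window, before a regulator of G protein signalling, stood at 41.7% and 43.8% in DMSO. Its treated libraries ran from 26.4% to 46.7%, and 1 of them, 10 µM replicate 2, was above the controls. In the Gnas window the order was the opposite: 3.0% and 0% in DMSO on 66 and 34 reads, and 52.7% and 34.8% at 0.2 µM on 55 and 46 reads. If the 34 were independent, 0 of 34 would allow up to 8.82%. They are not, as a read is counted once for each CpG it covers, so the true limit is higher. The 5 libraries at 2 and 10 µM held 7.1% to 31.2% there. All 7 treated libraries were above both controls in this window, which was picked after its values were seen and was not tested.

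Promoters in the chosen tiles were rich in CpG but not the richest. The 521 RefSeq windows of 300 bases (250 before and 50 after the start) whose gene start lies in one of these tiles held a median of 21 CpGs. No window on chromosome 18 was in the set used. The median was 25 in all 10851 such windows of CpG-dense autosomal tiles and 7 in all 32851 windows of the table. TGCCGC, the core of the motif that ZFP57 binds in methylated imprinted regions, was present on either strand in 90 of the 521 windows (17.3%). It was present in 23.4% of the windows in CpG-dense tiles and in 11.6% of all windows. A match to these letters is a description and not a binding site.

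The tiles were spread over all 19 autosomes, from 29 on chromosome 18 to 138 on chromosome 2. They held 20 to 138 CpG positions each, with a median of 36. The least covered library of a tile had 10 to 1119 reads, with a median of 106. Libraries held 8590883 to 16495535 reads at CpGs in all, with the fewest in 10 µM replicate 2 and DMSO replicate 2, and a median of 3 to 5 reads per CpG. Of the tiles, 454 contained a gene start, 808 lay inside a gene without a listed start in the tile and 161 lay outside genes. The gene starts used included none on chromosome 18, so its tiles could count only as inside or outside genes. The mix differed from that of all CpG-dense tiles, of which 8683 held a gene start, 10327 lay inside a gene and 1871 outside: 5.23% of dense tiles with a gene start were half-methylated, against 7.82% inside genes and 8.61% outside.

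The intermediate level was read similarly by both controls, within limits. The levels of the 2 DMSO libraries in a tile differed by a median of 5.70 percentage points. Of 1458 CpG-dense tiles that DMSO replicate 1 alone placed at 40% to 60%, 913 (62.6%) were in that range in replicate 2, which played no part in that choice, with a median of 52.4%. Of 1452 that replicate 2 alone placed there, the same 913 (62.9%) were in it in replicate 1, with a median of 50.1%. At the edges of the rule, tiles at Vax1 and Galr3 fell just outside with 39.9% each, and tiles at Pitx1 and Kcnj4 fell just inside with 40% each. At the upper edge, tiles near 4930440C22Rik and at Gm53054 were inside with 60% and tiles at Ephb1 and Slitrk5 outside with 60.1%.

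In most tiles a large share of the CpGs were themselves at intermediate levels, and in a minority methylated and unmethylated CpGs lay side by side. Over 24336 CpGs with at least 10 pooled DMSO reads in these tiles, of 59710 listed, 59.3% were themselves at 25% to 75%, 19.5% were lower and 21.2% were higher. The same DMSO reads chose the tiles, so a large share of intermediate CpGs was partly built in by the rule, and the shares are a description. In 345 tiles at least 70% of the CpGs read were intermediate (even tiles). In 95 tiles at most 30% were (split tiles), 736 tiles lay between (mixed tiles), and 247 had fewer than 5 CpGs with enough reads. Depth limits this count: the median CpG had 17 pooled DMSO reads, and 8 methylated of 17 give a 95% Wilson interval of 26.2% to 69.0%, which covers counting error only. With CpGs called intermediate at 20% to 80%, 589 tiles were even. With DMSO replicate 2 alone 451 tiles had enough CpGs read and 172 of them were even. The CpGs read in a tile were also divided by position into a first and a last group of equal size. The mean levels of these groups differed by a median of 11.1 points in even tiles, 18.0 in mixed tiles and 46.2 in split tiles. The step was 50 points or more in 43 of the 95 split tiles, in 35 of 736 mixed tiles and in 1 of 345 even tiles.

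Some tiles lay at a border between differing neighbours. Of 1052 tiles with a neighbouring tile tested, 163 bordered a tile under 20% and 130 bordered a tile at 80% or above. Of 268 tiles with both neighbours tested, 18 lay between a tile of each kind. Next to a second half-methylated tile were 264 of the 1423 tiles, a count that can overlap with the others.

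**Figure D1:**
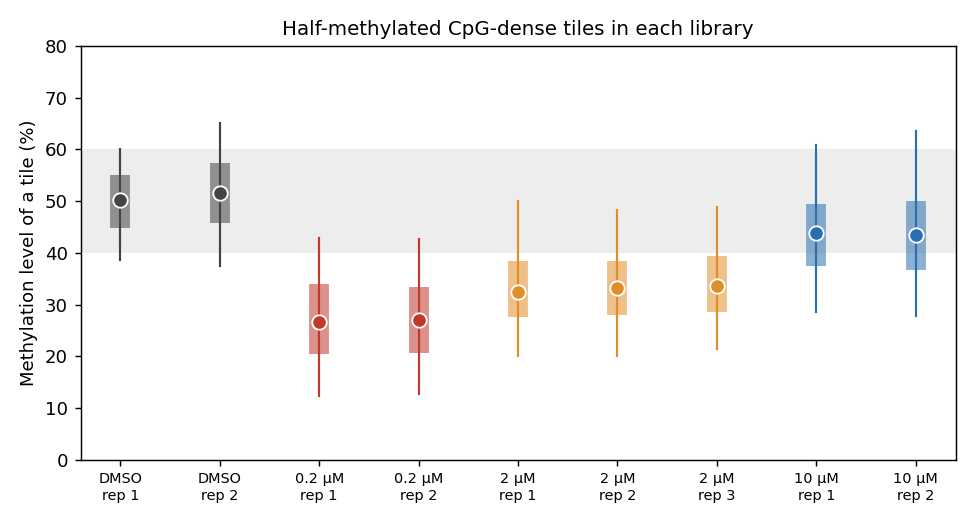
Levels of the 1423 half-methylated CpG-dense tiles in each of the 9 libraries. The y axis is the methylation level of a tile in percent. Dots are medians, thick bars span the middle 50% of tiles, thin lines run from the 5th to the 95th percentile, and the grey band is the range used to choose tiles in the pooled DMSO libraries. Medians fall from 50.2% and 51.6% in DMSO to 26.7% and 27.0% at 0.2 µM and are higher at each larger dose.

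The lowest dose left the least methylation in these tiles. The median tile stood at 50.2% and 51.6% in the DMSO libraries and at 26.7% and 27.0% at 0.2 µM. Under 2 µM it was 32.4%, 33.2% and 33.7%, and under 10 µM 43.8% and 43.4%, as the plot of tile levels by library shows. No library of one group overlapped a library of another in this median. Of its DMSO level the median tile kept 53.9%, 65.5% and 85.5% with rising dose. In 788 tiles (55.4%) the group means rose in the order 0.2 µM, 2 µM, 10 µM and DMSO, an order found in 47.8% of all tiles tested and in 26.5% of CpG-dense autosomal tiles. The order needs DMSO to be highest, and the DMSO level chose the tiles. Of the CpG-dense autosomal tiles 59.7% were under 20% in DMSO and had little to lose. The shares are therefore a description.

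Against DMSO, whose level chose the tiles, the counts are given as a description. The tile test was a binomial model over the 9 libraries with limma's moderated dispersion and Benjamini-Hochberg adjustment over 66788 tiles, with calls at an adjusted p under 0.05. Under 0.2 µM it called 1157 of the 1423 tiles lower (81.3%, with 62.7% of all tiles called). At 2 µM it called 854 (60.01%, with 48.8%), and under 10 µM 46 (3.23%, with 13.2%). Without DMSO replicate 1 or 2 the share was 34.6% or 31.9% under 2 µM and at most 0.0703% under 10 µM. At 10 µM 260 tiles had a mean at or above that of DMSO, against 26 at 2 µM and 7 at 0.2 µM. Tiles under 20% numbered 302, 16 and 1 with rising dose, and tiles still at 40% or above numbered 106, 210 and 944.

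Between the drug doses, every call in the chosen tiles went upward with dose. DMSO had chosen the tiles, and its libraries also entered the estimate of the spread in this model. From 0.2 to 10 µM the median difference was 15.7 points, and 677 tiles (47.6%) were called higher, with 40.1% of all tiles called. From 0.2 to 2 µM it was 5.69 points and 95 tiles (6.68%) were called, with 9.38% of all tiles. From 2 to 10 µM it was 10.3 points and 101 tiles (7.10%) were called, with 7.04%. The shares called were near those of all tiles. Among CpG-dense autosomal tiles, most of which were unmethylated from the start, the shares called were 22.3%, 5.26% and 7.33%. The tile test called none of the 1423 lower at a higher dose, with 0.0779% of all tiles called lower from 0.2 to 10 µM, 0.359% from 0.2 to 2 µM and 0.0195% from 2 to 10 µM. At an unadjusted p under 0.05 it had 9 lower at 2 than at 0.2 µM, 2 lower at 10 than at 2 µM and 0 lower at 10 than at 0.2 µM. Limma on tile levels called 0 in each of these comparisons. All libraries at 10 µM lay above both at 0.2 µM in 1175 tiles (82.6%, with 66.8% of all tiles). Libraries did not overlap, the higher dose being higher, in 594 tiles between 2 and 0.2 µM (41.7%, with 41.4%) and in 784 between 10 and 2 µM (55.1%, with 38.9%). These counts depend on the test: limma on tile levels called 26.9% of the tiles higher at 10 than at 0.2 µM, 0.632% higher at 2 than at 0.2 µM and 0.773% higher at 10 than at 2 µM. Leaving out either 0.2 µM library left 24.5% called at 10 over 0.2 µM and at most 0.141% at 2 over 0.2 µM, and leaving out 10 µM replicate 1 left 30.9% at 10 over 0.2 µM. At 2 over 0.2 µM the share was 3.94% or 4.01% without 1 of the DMSO libraries and 3.79% without 2 µM replicate 3. At 10 over 2 µM leaving out 1 library, whichever it was, left 1.69% (10 µM replicate 2) to 4.85% (2 µM replicate 1).

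Even and split tiles had group medians within 3 points of each other at each dose. Even tiles had medians of 28.0%, 32.4% and 42.6% at 0.2, 2 and 10 µM, and split tiles 25.03%, 33.5% and 44.6%. From 0.2 to 10 µM 141 of 345 even tiles (40.9%), 375 of 736 mixed tiles (51.0%) and 57 of 95 split tiles (60%) were called higher, with median differences of 13.6, 14.9 and 19.5 points. From 0.2 to 2 µM the median difference was 3.87, 5.12 and 9.62 points in even, mixed and split tiles. The classes also differed in CpG number, with medians of 39, 41 and 31 CpGs in even, mixed and split tiles. Median reads in the least covered library were 122, 134 and 87. The differences between these classes were not tested. The 28 X-linked CpG-dense tiles that met the same rule, 4.79% of 585 such tiles, had medians of 52.9% in DMSO and 31.5%, 38.9% and 48.0% at the 3 doses. The 3698 CpG-dense autosomal tiles at 80% or above in DMSO stood at 47.5%, 54.5% and 72.3%, from 91.0%.

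**Figure D2:**
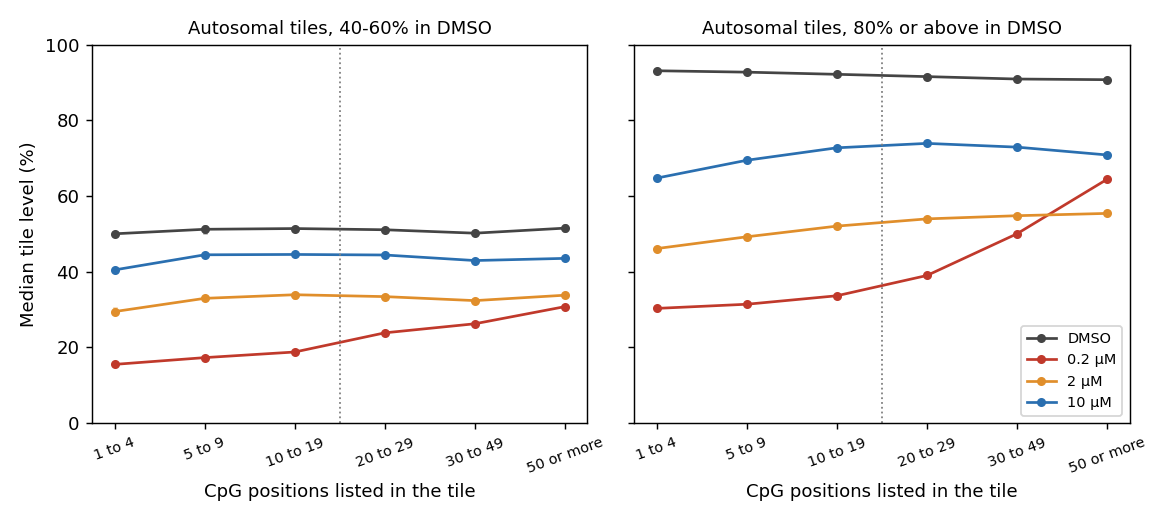
Median tile level against the number of CpG positions listed in the tile, for autosomal tiles at 40% to 60% in DMSO (left) and at 80% or above (right). The y axis is the level in percent, points are means over the libraries of a group of the library medians, vertical bars give the range over libraries and are mostly hidden by the points, and the dotted line marks 20 CpGs. At 40% to 60% in DMSO the 0.2 µM points climb from 15.5% to 30.7% while those of 2 and 10 µM stay nearly level. Tiles with more CpGs were also read more deeply.

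The level at the lowest dose was higher in tiles with more CpGs, which were also read more deeply. Among half-methylated autosomal tiles of any density, the median at 0.2 µM was 15.5% with 1 to 4 CpGs (996 tiles), 17.3% with 5 to 9 (1608) and 18.6% with 10 to 19 (1275). In the dense tiles it was 23.7% with 20 to 29 CpGs (484), 26.7% with 30 to 49 (541) and 31.0% with 50 or more (398). Over the same 6 classes the median ran from 29.9% to 33.9% at 2 µM and from 40.7% to 44.7% at 10 µM, and from 50.6% to 52.1% in DMSO. The plot of level by CpG number shows the 0.2 µM line rising towards that of 2 µM.

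Both 0.2 µM libraries showed it: 23.7% and 23.9% with 20 to 29 CpGs, 26.0% and 26.4% with 30 to 49, and 31.0% and 30.5% with 50 or more. Correspondingly, the mean at 0.2 µM was above that at 2 µM in 78 of 484 tiles (16.1%), 128 of 541 (23.7%) and 120 of 398 (30.2%). Calls of 2 over 0.2 µM numbered 43 (8.88%), 33 (6.10%) and 19 (4.77%), and calls of 10 over 0.2 µM made up 47.7%, 47.0% and 48.2%. The median difference from 0.2 to 10 µM was 19.3, 16.3 and 12.8 points in these 3 classes. Depth rose with CpG number. The median of the least covered library was 51 reads with 20 to 29 CpGs, 109 with 30 to 49 and 243 with 50 or more. With at least 100 reads in every library the 0.2 µM medians were 24.9% (71 tiles), 26.5% (301) and 30.9% (376). Below 20 CpGs the climb was not seen at matched minimum depth. With at least 50 reads the 0.2 µM median was 22.4% with 5 to 9 CpGs (38 tiles) and 20.1% with 10 to 19 (207), and then 24.5%, 26.7% and 31.0% in the dense classes. Over these 5 classes the median ran from 27.5% to 33.8% at 2 µM and from 38.6% to 43.9% at 10 µM, and only 4 tiles of 1 to 4 CpGs were that deep. With at least 100 reads the 0.2 µM median was 23.2% with 10 to 19 CpGs (25 tiles). In tiles at 80% or above in DMSO the 0.2 µM median climbed from 30.3% with 1 to 4 CpGs to 64.7% with 50 or more, where it exceeded the 55.3% at 2 µM.

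**Figure D3:**
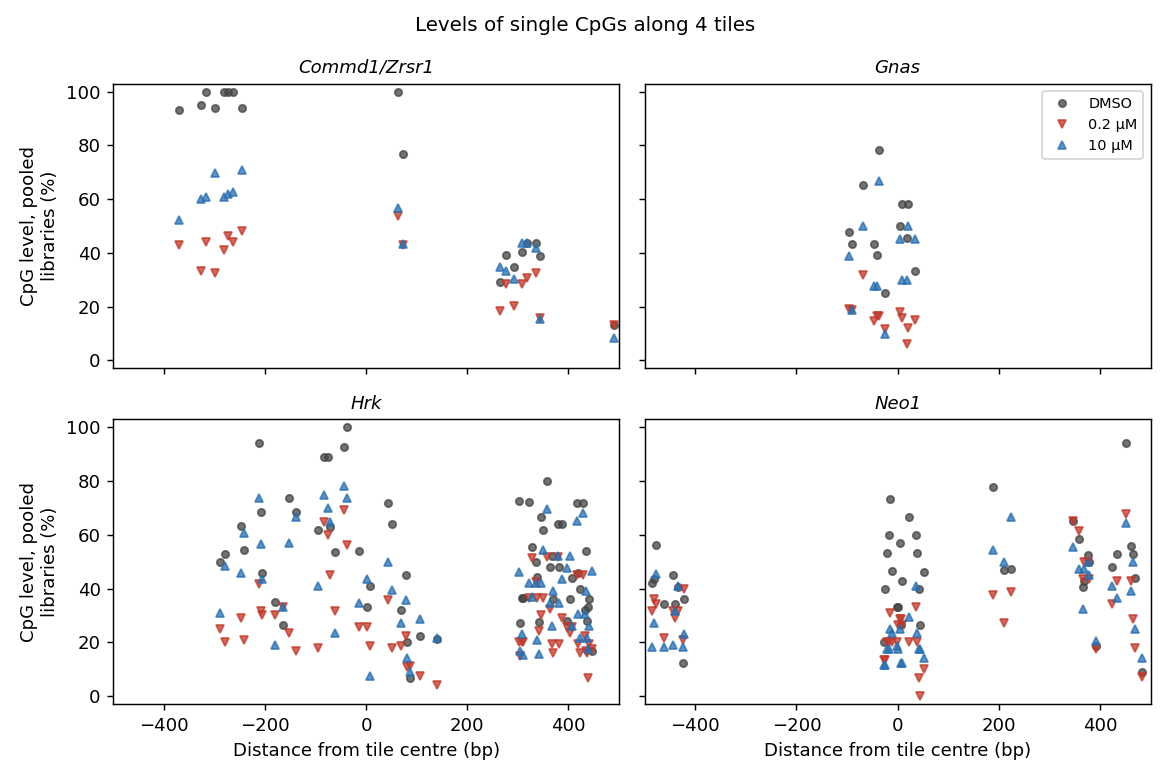
Levels of single CpGs along 4 half-methylated tiles. The x axis is the distance from the tile centre in bp and the y axis the level in percent, with the libraries of a group pooled and at least 10 pooled reads in each group. The Commd1/Zrsr1 tile has a methylated left part at 93.3% to 100% in DMSO, whereas DMSO points of Gnas, Hrk and Neo1 scatter around the middle of the scale.

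Imprinted genes accounted for few of the tiles. For 3 lists of imprinted genes, 68 CpG-dense autosomal tiles overlapped a gene or lay within 5 kb of it. Of these, 8 (11.8%) were half-methylated, against 6.81% of all dense tiles. A further 23 were at 80% or above, 19 were under 20% and 18 were elsewhere. By list, 4 of 40 tiles at genes with a germline mark from the egg, 2 of 7 (28.6%) with a mark from the sperm and 2 of 21 at other imprinted genes were half-methylated. The 8 tiles lay at Commd1/Zrsr1, Trappc9/Peg13, Gnas (2 tiles), Rasgrf1, Igf2, Calcr and Ascl2. Their median was 46.3% in DMSO, then 31.5%, 36.0% and 39.0% with rising dose.

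Zrsr1, a paternally expressed splicing factor gene inside an intron of Commd1, gave a split tile (chr11:22972001-22973000, mm10, with gene starts of both annotated). Its level was 39.1% and 63.8% in DMSO and 32.0% and 30.2% at 0.2 µM. Under 2 µM it was 33.6%, 38.8% and 35.5%, and under 10 µM 39.6% and 52.3%. Treated and control libraries overlapped at 10 µM only. Along the tile, 8 CpGs before the tile centre averaged 97.0% in DMSO, then 41.5%, 50.8% and 62.4% with rising dose. The 10 CpGs read after the centre ran from 13.3% to 100% in DMSO. A nearly fully methylated part thus lay beside a less methylated one, as the plot of single CpGs shows. Trappc9/Peg13 (chr15:72810001-72811000), where the noncoding RNA Peg13 lies in an intron of Trappc9, was also split, with 8 CpGs under 25%, 2 over 75% and none between.

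Gnas, the gene of the stimulatory G protein alpha subunit, held an even tile inside the gene (chr2:174328001-174329000) with 12 of 13 CpGs intermediate. Its level was 37.7% and 47.5% in DMSO and 17.1% and 11.7% at 0.2 µM. Under 2 µM it was 37.5%, 32.6% and 44.7%, and under 10 µM 44.7% and 32.6%. Only the 0.2 µM libraries stood apart. The tile was 24.2 points higher at 10 than at 0.2 µM, in 2 of 2 libraries (adjusted p = 0.000516), and 23.9 points higher at 2 than at 0.2 µM, in 3 of 3 (adjusted p = 0.00347). The second call was lost without 0.2 µM replicate 2 (adjusted p = 0.0884) and with limma on tile levels (0.0824). The Gnas tile that holds the gene start (chr2:174284001-174285000) was mixed, and 1 treated library reached the control level: 45.1% and 47.4% in DMSO, 33.9% and 41.6% at 0.2 µM, and 26.8% to 45.2% in the other treated libraries.

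Of the remaining imprinted tiles, Igf2, a paternally expressed growth factor (chr7:142664001-142665000), stood at 55.8% ± 0.37 (SD, n = 2) in DMSO, 31.8% ± 10.6 at 0.2 µM, 29.5% ± 6.77 at 2 µM (n = 3) and 45.7% ± 2.64 at 10 µM. Rasgrf1, a Ras exchange factor (chr9:89909001-89910000), stood at 46.4% ± 9.94 in DMSO and 34.1% ± 7.46, 43.4% ± 9.17 and 37.4% ± 12.2 at the 3 doses, so its groups overlapped. Calcr, the calcitonin receptor, and Ascl2, a transcription factor of the placenta, each had 11 reads in their least covered library. No dose contrast was called at Igf2, Rasgrf1, Calcr, Ascl2 or the Gnas start tile. At Commd1/Zrsr1 and Trappc9/Peg13 the calls of 10 over 0.2 µM (adjusted p = 0.0355 and 0.0482) were lost without either 0.2 µM library (adjusted p from 0.0868 to 0.267) and without 10 µM replicate 2 (0.297 and 0.31). That of Commd1/Zrsr1 was also lost with limma on tile levels (0.228), and that of Trappc9/Peg13 was lost in 10 of the 13 settings tried.

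**Figure D4:**
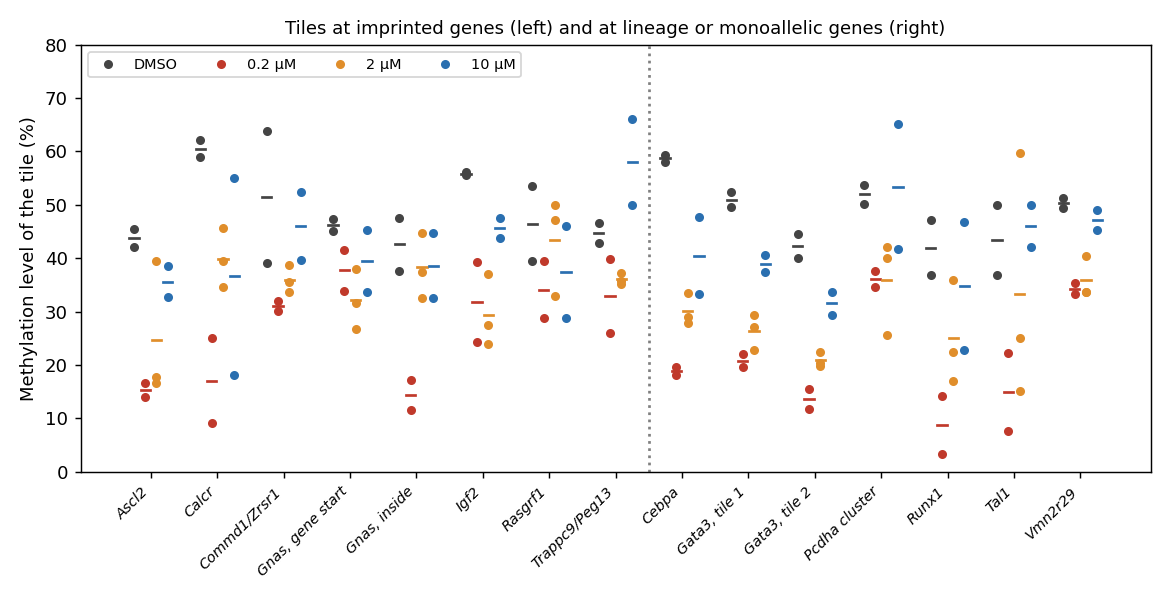
Level of each tile at imprinted genes (left of the dotted line) and at blood lineage or monoallelic genes (right) in the 9 libraries. The y axis is the methylation level in percent, dots are libraries coloured by dose, and short lines are group means. At Cebpa, both Gata3 tiles, Runx1 and Vmn2r29 the group means rise in the order 0.2 µM, 2 µM, 10 µM and DMSO. The same order holds at Commd1/Zrsr1, Ascl2 and the Gnas tile inside the gene, and at no other tile shown.

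Genes of the B lineage and of germ cells gave no half-methylated tile, and regulators of other blood lineages gave 5. Of 31 dense tiles at B lineage genes 24 were under 20%, and of 15 at germline genes 13 were at 80% or above. Of all CpG-dense autosomal tiles 59.7% were under 20%, 17.7% were at 80% or above and 6.81% were half-methylated. These lists held few tiles, so their counts are a description. Of 52 dense tiles at other blood lineage genes, 24 were under 20%, 13 were at 80% or above, and 5 (9.62%) were half-methylated. These 5 were at Runx1, Tal1, Cebpa and Gata3 (2 tiles), and all 5 were called higher at 10 than at 0.2 µM, with 40.1% of all tiles and 47.6% of the 1423 called.

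Cebpa, the master regulator of granulocyte development, gave an even tile inside the gene (chr7:35120001-35121000). The DMSO libraries held 58.1% and 59.4% and those of 0.2 µM 18.2% and 19.6%. Under 2 µM the level was 27.8%, 33.5% and 29.1%, and under 10 µM 33.2% and 47.7%. Libraries overlapped only between 2 and 10 µM, and the tile was 21.6 points higher at 10 than at 0.2 µM in 2 of 2 libraries (adjusted p = 0.00153). At Gata3, a T cell regulator, the tile chr2:9881001-9882000 held 52.3% and 49.5% in DMSO and 22.0% and 19.6% under 0.2 µM. In the 2 µM libraries it held 22.8%, 29.4% and 27.2%, and under 10 µM 37.4% and 40.6%. It was 18.2 points higher at 10 than at 0.2 µM (adjusted p = 0.00507), and the second Gata3 tile, chr2:9883001-9884000, was 17.9 points higher (adjusted p = 0.00348). None of these 3 calls was lost in any of the 13 settings tried. The calls at Runx1 and Tal1, regulators of blood stem cells, were lost without 0.2 µM replicate 1 (adjusted p = 0.0754 and 0.21), without 10 µM replicate 1 (0.241 and 0.103) and with limma on tile levels (0.0770 and 0.125).

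Of 26 dense tiles at textbook cases of random monoallelic expression, 2 (7.69%) were half-methylated, near the 6.81% of all dense tiles. One lay in the clustered protocadherin alpha genes (chr18:37144001-37145000), which encode neuronal adhesion proteins. It stood at 51.9% ± 2.45 in DMSO and at 36.1% ± 2.09, 35.9% ± 8.98 and 53.4% ± 16.5 with rising dose (SD; n = 2, and 3 for 2 µM). The other, at the start of the vomeronasal receptor gene Vmn2r29 (chr7:7278001-7279000), was split and stood at 50.4% ± 1.35, 34.3% ± 1.38, 35.9% ± 3.88 and 47.2% ± 2.59. Vmn2r29 was called higher at 10 than at 0.2 µM (adjusted p = 0.0361), a call lost without either 0.2 µM library (adjusted p = 0.0938 and 0.154) or 10 µM replicate 1 (0.152) and with limma on tile levels (0.116).

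Homeobox genes, which pattern the embryo and many of which are silent in blood cells, held a larger share of half-methylated tiles than the other lists, apart from the 7 tiles at genes with a sperm mark. The imprinted lists also took tiles within 5 kb of a gene, whereas all other lists took only tiles that overlap a gene. Of 362 dense tiles at homeobox genes 88 (24.3%) were half-methylated, at 58 of the 123 genes with a dense tile. The share was 16.8% (33 of 197) for Sox, T-box, forkhead and GATA genes, and 3.29% (12 of 365) for Zfp zinc finger genes, of whose tiles 227 were under 20%. The homeobox tiles had medians of 52.0% in DMSO and 27.8%, 32.0% and 43.0% with rising dose, close to those of all 1423. From 0.2 to 10 µM 37 of the 88 were called higher, with 40.1% of all tiles called. From 0.2 to 2 µM 2 of the 88 were called, with 9.38% of all tiles, and from 2 to 10 µM 4, with 7.04%.

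**Figure D5:**
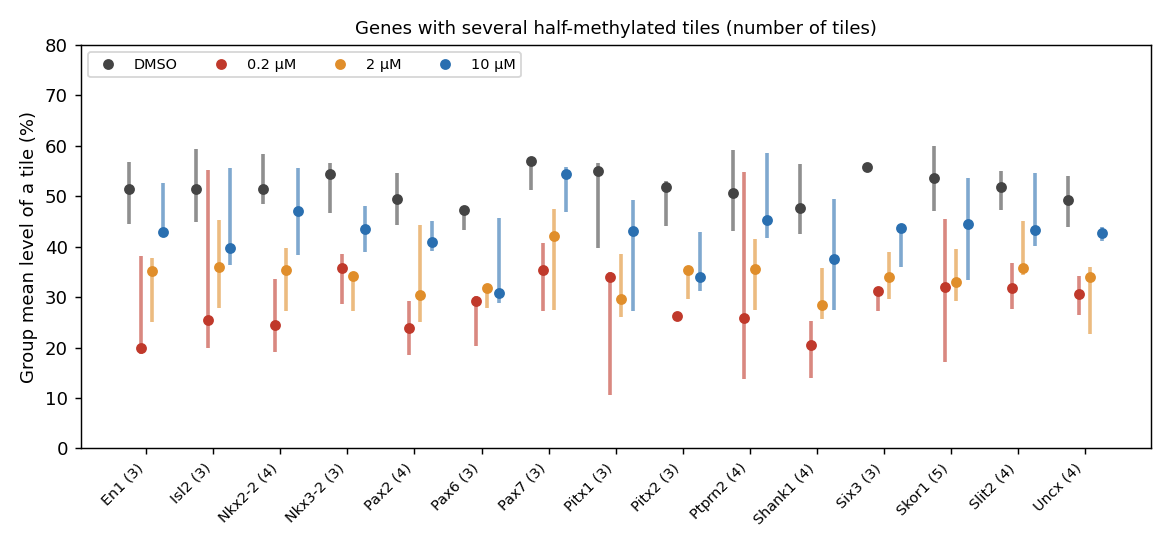
Group mean levels at 15 genes with several half-methylated tiles: the 7 genes with 4 or more tiles, the homeobox genes of the list with 3, and En1. The y axis is the level in percent, dots are medians over the tiles of a gene, and lines run from its lowest to its highest tile. The 0.2 µM medians lie between 19.995% and 35.7%, under the DMSO medians at every gene.

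Some genes held several half-methylated tiles. The 1423 tiles overlapped 1232 genes, of which 1030 had 1 such tile and 40 had 3 or more. Skor1, a transcriptional corepressor of the nervous system, led with 5 of its 7 dense tiles (chr9, between 63138001 and 63149000). Slit2, an axon guidance ligand, had all 4 of its 4, Uncx 4 of 5, Nkx2-2 4 of 6 and Pax2 4 of 10. Also with 4 were Ptprn2, a phosphatase-like protein of secretory vesicles, with 6 dense tiles, and Shank1, a scaffold of synapses, with 9. En1, the engrailed homeobox gene, had 3 of 3. These genes were named by their number of tiles, after that number was seen.

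Tiles of 1 gene could differ at the low dose. In Skor1 the group means at 0.2 µM ran from 17.1% to 45.5% over its 5 tiles, while those at 2 µM ran from 29.2% to 39.5%. In Pitx1, a homeobox gene of the hindlimb and pituitary, they ran from 10.7% to 34.9% over 3 tiles. In Slit2 they were closer, from 27.7% to 36.8%. Called higher at 10 than at 0.2 µM were all 4 Nkx2-2 tiles, 3 of 4 at Pax2 and Shank1 and 2 of 4 at Ptprn2. The count was 1 of 4 at Slit2 and Uncx, and 0 of 5 at Skor1. Of all tiles 40.1% were called, and of the 1423 tiles 47.6%. With so few tiles per gene these counts are a description, and differences between genes were not tested.

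The 8 even tiles with the most reads in their least covered library, 440 to 609, had means of 21.1% to 39.7% at 0.2 µM. They lay at Hrk, a cell death inducer of the BH3-only class, Neo1, a netrin receptor, Epha8, an ephrin receptor, and Wnt7b, a Wnt ligand. The others lay at Lrig1, an inhibitor of ErbB receptors, Gfra4, a receptor of the GDNF family, Arl4c, a small GTPase, and Septin3, a septin of neurons. Hrk (chr5:118169001-118170000, 49 of 60 CpGs intermediate) held 47.9% and 56.0% in DMSO and 27.8% and 30.3% under 0.2 µM. In the 2 µM libraries it held 35.2%, 32.0% and 35.0%, and under 10 µM 39.95% and 42.5%. Its groups did not overlap. Neo1 (chr9:59036001-59037000, 137 CpGs listed) had the smallest loss of the 8 at 0.2 µM: 44.1% ± 7.11 in DMSO and 36.0% ± 2.45, 34.1% ± 4.69 and 36.8% ± 4.82 at the 3 doses. Epha8 (chr4:136956001-136957000) stood at 42.4% ± 0.88, 28.9% ± 1.15, 31.9% ± 0.31 and 39.2% ± 12.5. Of the 8, 2 were called higher at 10 than at 0.2 µM, with 40.1% of all tiles and 47.6% of the 1423 called. These were Gm52180/Septin3 (16.4 points, adjusted p = 0.00688) and Hrk (12.2 points, adjusted p = 0.0447). Both calls were lost without 0.2 µM replicate 2 (adjusted p = 0.0913 and 0.104) and with limma on tile levels (0.0743 and 0.145), and that of Hrk was lost without any 1 library of DMSO, 0.2 µM or 10 µM (0.0564 to 0.185).

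The 3 largest differences between 10 and 0.2 µM were in tiles whose 10 µM libraries ended above both controls. Of tiles with at least 30 reads in every library, the one at Cacnb3, a calcium channel subunit (chr15:98631001-98632000), differed most between 10 and 0.2 µM. The DMSO libraries held 47.2% and 53.8% and those of 0.2 µM 15.2% and 12.3%. Under 2 µM the level was 28.7%, 49.7% and 43.4%, and under 10 µM 84.4% and 60%. Both 10 µM libraries were above both controls and 58.4 points above 0.2 µM on average (adjusted p = 3.53e-05). A tile 903 bp from Gm32897 (chr4:148743001-148744000) held 42.6% and 51.0% in DMSO and 12.5% and 6.6% under 0.2 µM. In the 2 µM libraries it held 76.9%, 59.5% and 66.1%, and under 10 µM 61.8% and 70.6%. All 5 libraries at 2 and 10 µM were above the controls, 58.0 points over 0.2 µM at 2 µM (adjusted p = 0.000379) and 56.6 points at 10 µM (adjusted p = 7.56e-05). Man2a2, an enzyme of N-glycan maturation (chr7:80368001-80369000), stood at 17.5% ± 4.84 at 0.2 µM and 68.6% ± 7.48 at 10 µM (51.1 points, adjusted p = 0.000362). These calls were not lost in any setting tried in which the tile could be tested. Depth was limited: 64 to 211 reads per library at Cacnb3, 34 to 136 near Gm32897 and 39 to 105 at Man2a2. A read is counted once for each CpG it covers, so fewer molecules were read.

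Other tiles were chosen for their differences between neighbouring doses. Cirbp/Fam174c, the first a cold-induced RNA-binding protein (chr10:80172001-80173000), and Cbs, the enzyme cystathionine beta-synthase (chr17:31637001-31638000), were 34.9 and 33.8 points higher at 2 than at 0.2 µM. Both calls (adjusted p = 0.00539 and 0.00682) were lost without either 0.2 µM library, with adjusted p from 0.068 to 0.114, and that of Cbs also with limma on tile levels (0.0624), while those of 10 over 0.2 µM were kept in every setting (0.000358 and 0.00257). Serinc2, Chst15 and a tile 108390 bp from Gm31525, its nearest gene, were 44.3, 37.3 and 31.9 points higher at 10 than at 2 µM (adjusted p = 0.0166, 0.00849 and 0.0201). All 3 calls were lost without 10 µM replicate 1 (0.363, 0.084 and 0.169). Those of Serinc2 and Chst15 were also lost with limma on tile levels (0.109 and 0.0545). In Serinc2 that library stood at 95.2% and replicate 2 at 49.1%.

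Among tiles with at least 30 reads, those that kept most methylation over the 7 treated libraries were at Rtl6, Clic6 and Dpp6 and near Gm9292. Rtl6, a gene derived from a retrotransposon (chr15:84557001-84558000), held 59.3% and 52.1% in DMSO and 40.1% and 47.3% under 0.2 µM. With 2 µM the level was 57.4%, 40.2% and 51.3%, and under 10 µM 75.8% and 80.1%. Both 10 µM libraries were above every other library, by 34.2 points over 0.2 µM (adjusted p = 0.00118). The tile near Gm9292 (chr12:23189001-23190000, 40745 bp from the gene) had overlapping libraries in all groups, with 58.3% ± 5.35 in DMSO and 59.5% ± 0.56, 55.3% ± 7.21 and 62.4% ± 2.18 at the 3 doses. The lowest treated means were at Timp2, Cped1 and Nkx6-3 and near 9530059O14Rik. Timp2, an inhibitor of metalloproteinases (chr11:118354001-118355000), held 43.1% and 38.6% in DMSO and 11.2% and 11.8% under 0.2 µM. With 2 µM the level was 17.6%, 24.6% and 22.7%, and under 10 µM 24.4% and 20.4%. Every treated library lay under both controls. Nkx6-3, a homeobox gene (chr8:23157001-23158000), stood at 42.9% ± 5.87 in DMSO and at 14.8% ± 2.62, 18.7% ± 2.29 and 27.9% ± 8.25 at the 3 doses.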

How the data were processed

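RRBS was read in 9 libraries of Abl.1 cells. The authors deposited 1 table per library without a header, with a CpG position, methylated over all reads as text, and a score that equalled 1000 times the share, rounded down, in every line. Coordinates are mm10, per the submitters' processing notes. Aligner and methylation caller: not given in the sources used here. All 221170 listed CpGs inside RefSeq promoter windows (GRCm38.p6) of CpG-dense tiles fell on a CG, and gene names and starts were taken from RefSeq. Exons and islands were left out, as no genome was used. Between 1 and 2 lines per library of odd width and 18 to 68 at repeated positions were left out.

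Reads were summed in 1 kb tiles with at least 10 reads in every library. Levels were tested by a binomial model with 1 level per group and all 9 libraries. Read numbers were scaled to an effective size, because reads of a tile are correlated (0.0322 in the least and 0.00894 in the most covered of 5 classes). The dispersion was moderated with limma 3.58.1 (R 4.3.3), with a prior from tiles at 10% to 90% and not under 1, and p-values were corrected by Benjamini-Hochberg over all tiles. The test was also run on simulated reads, drawn for independent libraries with the read correlation estimated here. That run could not show error from technical replicates, and its outcome is not given here. PCR copies were not separated, so intervals cover counting error only. Same-numbered libraries of different groups did not deviate together (correlations across tiles from -0.023 to 0.071), so replicate numbers were not taken as pairs.

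The tiles and the gene lists were chosen with earlier results of these data known. Named were tiles at imprinted, lineage and monoallelic genes, the 8 most deeply read even tiles without extreme depth (over 1582 reads), the 3 largest differences per pair of doses, and the 4 highest and 4 lowest treated means, the last 2 among tiles with at least 30 reads in every library. Alternatives were other read minimums, tests, membership rules and leaving out each library.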

Additional observations from a re-analysis of the deposited data

How the results depend on the processing

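The calls between doses rest on the test and on single libraries. With limma on tile levels 0.0703% of the 1423 tiles were called lower at 10 µM than in DMSO, 0.632% higher at 2 than at 0.2 µM, 0.773% higher at 10 than at 2 µM and 26.9% higher at 10 than at 0.2 µM. Without scaling of reads 15.8% were called at 2 over 0.2 µM and 14.2% at 10 over 2 µM. With the replicate block, which leaves out 2 µM replicate 3, these 2 shares were 3.65% and 4.50%, and the block moved no other count of calls by over 1.5 times. With 100 reads or more in every library, a choice made after seeing the data like that of leaving out very deep tiles, 5.75% were called lower at 10 µM than in DMSO.

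When each library was left out in turn, the share called lower than DMSO ran from 31.9% to 63.7% at 2 µM and from 0% (without DMSO replicate 1, 0 calls) to 3.94% at 10 µM. The share called higher ran from 0.0703% to 9.07% for 2 over 0.2 µM, from 1.69% to 4.85% for 10 over 2 µM and from 24.5% to 49.6% for 10 over 0.2 µM.

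The medians kept their order in every alternative. With an unweighted mean over CpGs they moved by more than the SD between libraries, to 50.0% in DMSO and 26.1%, 32.3% and 42.5% with rising dose. At 0.2 µM the median was 27.4% for tiles at 45% to 55%, 27.7% with both DMSO libraries in range, 28.6% with 20 CpGs in every file and 28.5% with 100 reads. With 100 reads it was 32.2% at 2 µM and 42.5% at 10 µM, and with 20 CpGs in every file 43.1% at 10 µM. Leaving out libraries gave 50.2% to 51.6%, 26.7% to 27.0% and 43.4% to 43.8% for DMSO, 0.2 µM and 10 µM. Even tiles numbered 589 with CpGs at 20% to 80%, and 172 to 309 with 1 DMSO library. Of 37 calls between doses at named tiles 13 kept their side of the threshold in every alternative run, and none changed direction.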
